A study of Mus musculus with 12 samples.

Results

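The genes described here are 42 genes of DNA replication and of mitosis, taken by symbol from the 24046 symbols in the count files. They were separated by function into 23 mitotic genes and 19 replication genes, the replication genes including the Mcm helicase genes, Pcna and the E2f genes. All 42 symbols were present in the files and all 42 passed the filter on low counts, as 12242 genes did. The libraries came from follicular (FO) B cells sorted from mouse spleens, with 3 libraries in each of 4 groups: Jmjd1c KO cells after 2 h of anti-IgM, Jmjd1c KO cells at 0 h, Jmjd1c WT cells after 2 h of anti-IgM and Jmjd1c WT cells at 0 h. Anti-IgM engages the antigen receptor of B cells, and Jmjd1c encodes a JmjC domain protein of the histone demethylase family. Library names tie the 12 libraries to 6 animals, 3 of each genotype, and each animal gave a 2 h and a 0 h library. Replicates 1, 2 and 3 carry the batch labels 1, 2 and 3 in every group, so each batch held 1 KO and 1 WT animal. The labels used here name no strain, age or deletion method. Anti-IgM and the 2 h in culture go together, so they cannot be told apart. The p-values below measure the spread between these 3 libraries a group.

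Resting follicular B cells are quiescent, and cross-linking of the receptor moves them out of quiescence towards G1. Replication genes are switched on at the G1 to S transition by the E2F factors once the retinoblastoma family proteins release them: the Mcm proteins form the helicase ring loaded at origins, and Pcna is the sliding clamp of the polymerases. Mitotic genes are switched on later, in G2, through MYB and FOXM1. In quiescent cells the DREAM complex represses both classes, binding E2F sites in replication promoters and the cell cycle homology region (CHR) in mitotic promoters, where NF-Y binds CCAAT boxes nearby.

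The promoters of the classes differed in sequence. The RefSeq promoter table (build GRCm38.p6, from 250 bases before to 50 bases after each start site) held 34 of the 42 genes. Motifs were searched on both strands: TTTGAA for the CHR, CCAAT for the NF-Y box, and for the E2F site the word TTCCCGC, the word TTGGCGC, the word TTCGCGC or the word TTGCCGC, whose matches on opposite strands can overlap. The stretches below run from 150 bases before to 30 bases after the start, 5′ to 3′, with whole motif matches in capitals. Mki67 (chr7:135716350-135716529, minus strand), Cenpf (chr1:189688057-189688236, minus strand) and Cdk1 (chr10:69352883-69353062, minus strand) are shown because their levels followed the ribosomal RNA content of the libraries closely. Mcm5 (chr8:75109359-75109538, plus strand) and Mcm6 (chr1:128359676-128359855, minus strand) stand for the helicase genes. Pcna (chr2:132253151-132253330, minus strand) and Ccne1 (chr7:38107461-38107640, minus strand) stand for the genes called at 2 h of anti-IgM. The call of Ccne1 depended on the settings, as given below.
Mki67: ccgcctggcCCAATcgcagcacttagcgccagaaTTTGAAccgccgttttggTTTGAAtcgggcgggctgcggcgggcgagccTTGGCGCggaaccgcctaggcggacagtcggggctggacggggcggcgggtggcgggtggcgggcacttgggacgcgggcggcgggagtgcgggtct
Cenpf: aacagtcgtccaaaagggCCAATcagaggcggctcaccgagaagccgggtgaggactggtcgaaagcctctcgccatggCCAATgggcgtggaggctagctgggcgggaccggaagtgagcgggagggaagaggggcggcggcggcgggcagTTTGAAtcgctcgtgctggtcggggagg
Cdk1: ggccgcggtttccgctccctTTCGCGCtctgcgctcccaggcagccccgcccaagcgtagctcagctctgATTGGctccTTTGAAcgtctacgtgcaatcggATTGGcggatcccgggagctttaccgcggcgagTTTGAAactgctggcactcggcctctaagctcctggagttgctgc
Mcm5: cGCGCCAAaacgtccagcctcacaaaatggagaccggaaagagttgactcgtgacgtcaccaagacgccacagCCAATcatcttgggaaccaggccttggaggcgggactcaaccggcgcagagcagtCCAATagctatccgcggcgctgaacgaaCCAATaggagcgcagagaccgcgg
Mcm6: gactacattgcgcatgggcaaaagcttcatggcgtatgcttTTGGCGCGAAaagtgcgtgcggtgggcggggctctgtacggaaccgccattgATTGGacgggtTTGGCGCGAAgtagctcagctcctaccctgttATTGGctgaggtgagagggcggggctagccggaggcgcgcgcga
Pcna: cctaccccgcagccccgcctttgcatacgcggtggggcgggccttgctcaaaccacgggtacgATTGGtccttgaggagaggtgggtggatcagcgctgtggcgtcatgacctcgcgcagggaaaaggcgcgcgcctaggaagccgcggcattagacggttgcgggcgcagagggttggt
Ccne1: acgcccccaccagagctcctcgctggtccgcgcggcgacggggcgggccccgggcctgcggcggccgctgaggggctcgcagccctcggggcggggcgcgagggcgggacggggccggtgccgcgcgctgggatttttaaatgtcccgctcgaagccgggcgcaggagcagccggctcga

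The Mki67 stretch held 2 CHR words, 1 NF-Y box and 1 E2F word, Cenpf held 1 CHR word and 2 NF-Y boxes, and Cdk1 held 2 CHR words, 2 NF-Y boxes and 1 E2F word. Mcm5 held 3 NF-Y boxes and 1 E2F word, and Mcm6 held 2 NF-Y boxes and 4 overlapping E2F words; neither held a CHR word. Pcna held 1 NF-Y box only, and none of the motifs lay in the Ccne1 stretch. Over the whole windows, 13 of 18 mitotic genes held a CHR word (72.2%), against 3 of 16 replication genes (18.8%) and 20.2% of all 27025 genes in the table. An E2F word was present in 3 of 18 mitotic genes (16.7%), against 11 of 16 replication genes (68.8%) and 10.9% of all genes. NF-Y boxes were found in 16 of 18 mitotic genes (88.9%), 9 of 16 replication genes (56.2%) and 41.1% of all genes. A match is a description of the letters and not a bound site.

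**Figure D1:**
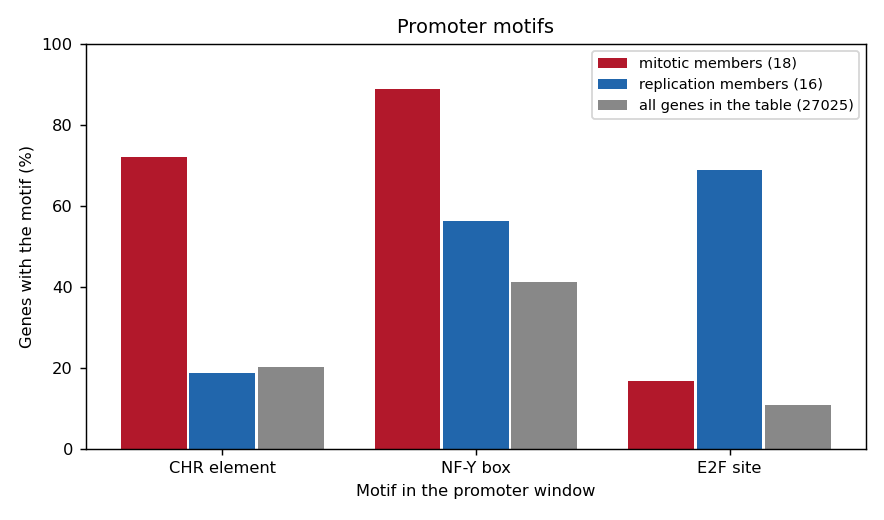
Percent of genes (y axis) with at least 1 match to each motif (x axis) in the RefSeq promoter window, for 18 mitotic genes, 16 replication genes and all 27025 genes of the table. CHR words are most frequent in the mitotic genes (72.2%) and E2F words in the replication genes (68.8%).

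The libraries fell into 2 separate sets by their content of Rn45s, the transcript of the ribosomal RNA precursor, which has no poly(A) tail, although the labels describe a poly(A) selection. Rn45s took 52.3% and 15.5% of the counts in KO 2 h replicates 1 and 2, 12.9% in KO 0 h replicate 2, 24.8% and 15% in WT 2 h replicates 1 and 2 and 12.9% in WT 0 h replicate 2. In the other 6 libraries it took between 0.418% and 1.09%. The sets were known from earlier results of these data, and what set them apart was not tested. Batch 2 lay wholly in the first set, batch 3 wholly in the second, and batch 1 was split between 2 h (high) and 0 h (low). In batch 1 Rn45s content and time thus cannot be told apart. Between batches 2 and 3 Rn45s content cannot be told apart from batch or animal. Total counts ranged from 5666013 to 14153396. Follicular B cell markers summed to between 11328 and 16030 CPM (read counts scaled to library size by TMM) in the high-Rn45s libraries and between 14601 and 16487 CPM in the others, with KO 2 h replicate 1 the lowest. Jmjd1c itself, the targeted gene, had 199 to 213 CPM in KO 2 h, 196 to 236 CPM in KO 0 h, 269 to 322 CPM in WT 2 h and 288 to 360 CPM in WT 0 h, lower in every KO library than in every WT library of the same time, as were 3.59% of all genes at 2 h and 2.9% at 0 h.

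A pair of libraries of batch 1 also stood apart in sex-linked RNA. Xist had 618 and 1303 CPM in KO 2 h and WT 2 h replicate 1, against 1184 and 1153 CPM in KO 0 h and WT 0 h replicate 1. Summed Y-linked genes had 48.0 and 11.8 CPM in these 2 h libraries, against 0.984 and 0.476 CPM at 0 h of the same animals. In batch 2, where Y-linked genes summed to between 411 and 491 CPM, Xist had between 32.3 and 53.5 CPM, and in batch 3 between 0.863 and 1.47 CPM. Y-linked genes summed to between 374 and 470 CPM in batch 3. Batch 1 was thus high in Xist, and batches 2 and 3 were high in Y-linked RNA. Where batch 1 is set against batches 2 and 3, sex and batch cannot be told apart. Xist and Y-linked RNA were thus both present in the high-Rn45s libraries of batches 1 and 2. The part of this in the values below was not tested. Results are given with and without KO 2 h and WT 2 h replicate 1, but no setting left out the batch 2 libraries together.

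Most of the 42 genes, of both classes, were highest in 1 library (map of levels over the 12 libraries). KO 2 h replicate 1, the library with the most Rn45s, was the highest of the 12 for 23 of 23 mitotic genes and 16 of 19 replication genes, against 26.2% of all genes tested. WT 2 h replicate 1 came second behind it for 16 mitotic genes and 7 replication genes, against 6.87% of all genes. At the filter's minimum of about 1 CPM, 36 genes were above it in all 12 libraries. Ccnb1, Cdk1 and Cdc6 reached it in 11 libraries, Tyms in 10, and Bub1 and Ube2c in 9, so these passed partly through the libraries where they were high.

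**Figure D2:**
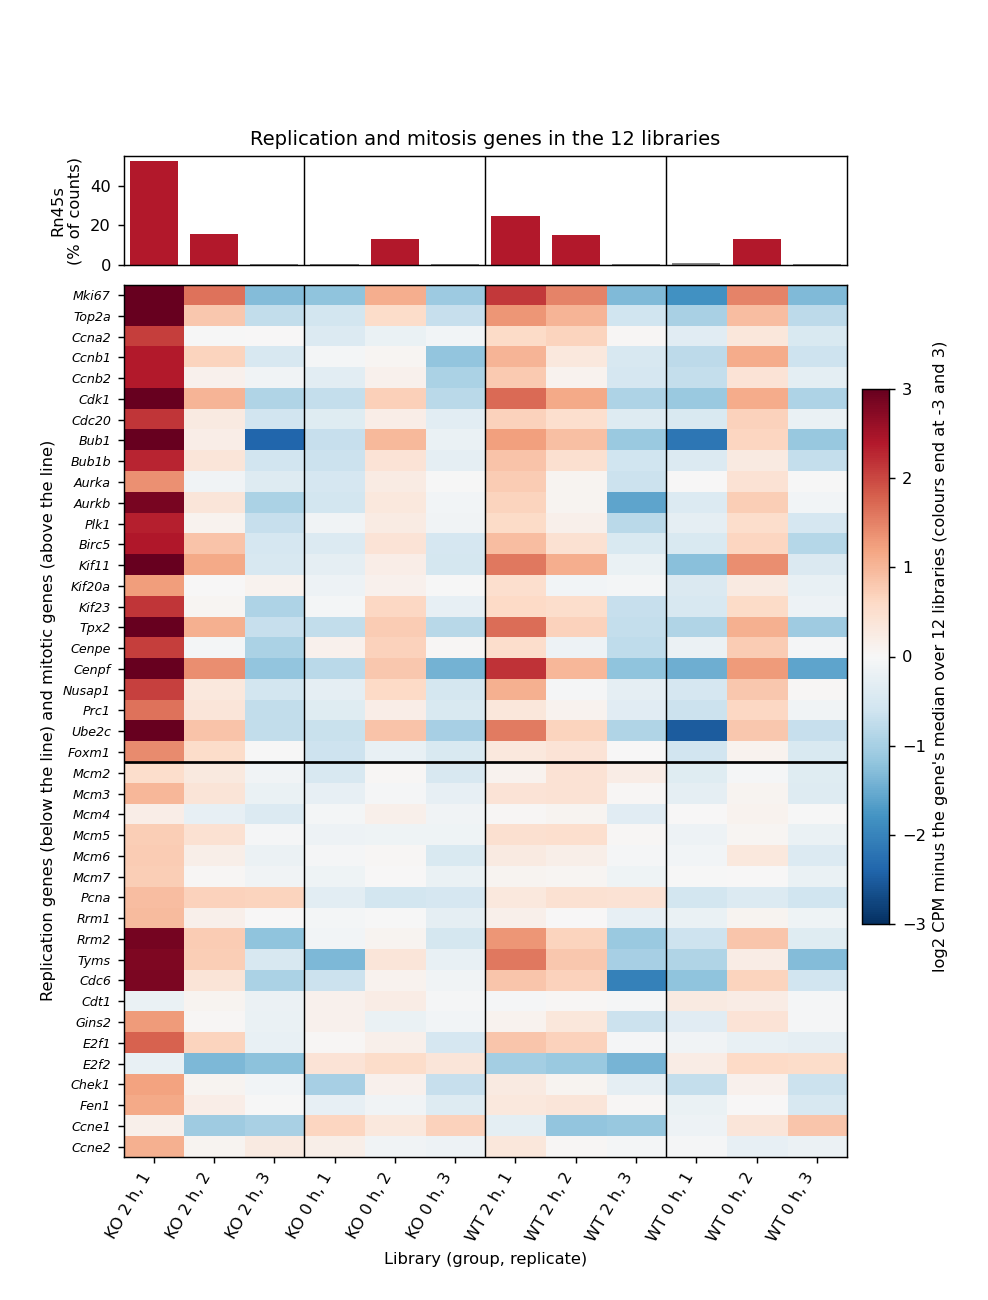
Upper panel: percent of counts on Rn45s in each library, with libraries over 10% in red. Lower panel: log2 CPM of each of the 42 genes (rows) minus its own median over the 12 libraries (columns, by group and replicate), with 23 mitotic genes above the line and 19 replication genes below it. The darkest column for the mitotic genes is KO 2 h replicate 1, and Pcna and E2f2 follow the time of stimulation in opposite directions.

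Many mitotic genes were higher in the libraries over 10% Rn45s than in the others. With 1 mean per group and a term for these libraries, edgeR's quasi-likelihood test with Benjamini-Hochberg adjustment called 11 of 23 mitotic genes higher and 0 lower, where 4.46% of all genes tested were called higher and 0.743% lower. The median log2 difference was 1.30 over the mitotic genes and -0.03 over all genes. All 6 high-Rn45s libraries lay above all 6 others for 17 of 23 mitotic genes, against 5.37% of all genes. The model had no term for batch or animal, and both libraries of each batch 2 animal were in the high set. Its p-values thus treat libraries of the same animal as independent.

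By role, 2 of 2 chromosome genes, 3 of 4 spindle checkpoint genes, 3 of 8 spindle and kinetochore genes, 2 of 5 genes of the cyclin, Cdk1 and Foxm1 group and 1 of 4 kinase and survivin genes were called. Mki67, which encodes the Ki-67 protein that coats mitotic chromosomes and marks cycling cells, had 529, 97.1 and 12.7 CPM in KO 2 h (replicates 1, 2 and 3, in that order here and below), 13.5, 67.2 and 14.5 CPM in KO 0 h, 138, 87.6 and 12.4 CPM in WT 2 h and 8.81, 88.6 and 12.4 CPM in WT 0 h. Top2a, the topoisomerase that untangles sister chromatids, had 214, 42.6 and 14.4 CPM in KO 2 h, 16.5, 35.4 and 14.8 CPM in KO 0 h, 60.4, 49.5 and 15.8 CPM in WT 2 h and 12.1, 46.2 and 14.0 CPM in WT 0 h. Cdk1, the kinase that drives entry into mitosis, had 25.4, 4.47 and 1.05 CPM in KO 2 h, 1.21, 3.62 and 1.13 CPM in KO 0 h, 7.32, 4.85 and 1.02 CPM in WT 2 h and 0.873, 4.82 and 1.04 CPM in WT 0 h. In all 3 genes the 6 high-Rn45s libraries lay above the other 6 without overlap, whatever the genotype or time. The log2 difference was 3.25 ± 0.45 (SE) for Mki67 (adjusted p = 0.00176), 1.96 ± 0.39 for Top2a (adjusted p = 0.0126) and 2.55 ± 0.47 for Cdk1 (adjusted p = 0.00886). Ccnb1, the cyclin B1 partner of Cdk1, had 11.5, 3.38 and 1.42 CPM in KO 2 h, 1.97, 2.15 and 0.80 CPM in KO 0 h, 4.39, 2.59 and 1.41 CPM in WT 2 h and 1.11, 4.70 and 1.28 CPM in WT 0 h, a log2 difference between the sets of 1.58 ± 0.41 (adjusted p = 0.0492). Ccnb2, the other B-type cyclin here, had 23.3, 4.71 and 3.96 CPM in KO 2 h, 3.41, 4.75 and 2.13 CPM in KO 0 h, 7.58, 4.69 and 2.98 CPM in WT 2 h and 2.54, 5.79 and 3.48 CPM in WT 0 h. Its sets did not overlap either, but its difference of 1.13 ± 0.38 did not pass the test (adjusted p = 0.119). Ccna2 (cyclin A2), at 11.8 to 57.5 CPM in the high-Rn45s libraries and 9.76 to 13.8 CPM in the others, and Foxm1, at 14.4 to 45.7 against 11 to 17.1 CPM, overlapped between the sets and were not called.

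Among the spindle and checkpoint genes, Cenpf and Tpx2 had the smallest p. Cenpf, a kinetochore protein of G2 and mitosis, had 67.3, 10.9 and 1.67 CPM in KO 2 h, 2.19, 7.24 and 1.40 CPM in KO 0 h, 18.6, 8.25 and 1.65 CPM in WT 2 h and 1.35, 10.0 and 1.22 CPM in WT 0 h. Tpx2, the spindle assembly factor that activates Aurora A, had 48.4, 10.7 and 3.03 CPM in KO 2 h, 2.95, 8.71 and 2.73 CPM in KO 0 h, 16.4, 8.25 and 2.98 CPM in WT 2 h and 2.62, 10.7 and 2.32 CPM in WT 0 h. The log2 difference was 3.11 ± 0.53 for Cenpf (adjusted p = 0.00518) and 2.24 ± 0.40 for Tpx2 (adjusted p = 0.00654), with no overlap between the sets. The other genes called were Kif11, the motor that separates the poles (1.86 ± 0.41), Bub1 and Bub1b of the spindle checkpoint (2.68 ± 0.63 and 1.29 ± 0.33), Ube2c, the E2 enzyme of the anaphase-promoting complex (2.57 ± 0.59), and Birc5, or survivin (1.47 ± 0.33), with adjusted p between 0.0219 and 0.0474. Plk1, a kinase of mitotic entry and exit, had 25.4, 5.31 and 2.97 CPM in KO 2 h, 4.54, 5.88 and 4.53 CPM in KO 0 h, 7.45, 5.5 and 2.75 CPM in WT 2 h and 4.05, 7.11 and 3.41 CPM in WT 0 h. Its sets did not overlap, and its log2 difference of 1.19 ± 0.40 missed the threshold (adjusted p = 0.121). The smallest difference of the 23 mitotic genes was 0.44 ± 0.20 for Kif20a, a kinesin of cytokinesis. Aurka, Kif20a, Cenpe and Nusap1 overlapped between the sets, and Cdc20, Aurkb, Kif23 and Prc1 did not, but all 8 missed the threshold.

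Fewer replication genes were called with Rn45s, a contrast between the classes that was not itself tested. Of the 19, 1 gene, Tyms, was called higher and 0 lower, with a median log2 difference of 0.35. That is close to the share of all genes called higher, 4.46%. The sets did not overlap for 6 of 19, against 5.37% of all genes. Tyms, or thymidylate synthase, had 16.6, 3.86 and 1.55 CPM in KO 2 h, 0.757, 2.94 and 1.87 CPM in KO 0 h, 7.05, 4.04 and 1.02 CPM in WT 2 h and 1.11, 2.65 and 0.793 CPM in WT 0 h, a log2 difference of 1.93 ± 0.46 (adjusted p = 0.0318). Rrm2, the regulated subunit of ribonucleotide reductase, had 42.6, 9.66 and 2.35 CPM in KO 2 h, 5.30, 5.99 and 3.87 CPM in KO 0 h, 14.4, 9.05 and 2.51 CPM in WT 2 h and 3.57, 10.2 and 4.33 CPM in WT 0 h. Cdc6, which loads the helicase at origins, had 21.0, 3.74 and 1.36 CPM in KO 2 h, 1.74, 3.05 and 2.60 CPM in KO 0 h, 5.19, 4.69 and 0.549 CPM in WT 2 h and 1.11, 4.58 and 1.83 CPM in WT 0 h. Both lay higher in every high-Rn45s library, by 1.82 ± 0.50 (adjusted p = 0.0581) and 2.03 ± 0.55 (adjusted p = 0.0556) on the log2 scale, and were not called. The 6 Mcm genes, subunits of the helicase ring, differed by 0.25 to 0.47 on the log2 scale with none called. At the other end stood Pcna (0.03 ± 0.09), Ccne2 (0.09 ± 0.19), Cdt1 (0.11 ± 0.09) and Ccne1 (0.13 ± 0.30), with adjusted p between 0.570 and 0.909.

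These counts depended on single libraries. With the batch as a block, in which the comparison rests on batch 1, edgeR called 27 of the 42 genes higher (20 mitotic and 7 replication genes), where 8.07% of all genes were called higher, and the log2 difference of Mki67 was 4.61 ± 0.51. Of the 12 genes called without the block, 11 were among them, Ccnb1 being the exception (adjusted p = 0.0561). The number called was 3 without KO 2 h replicate 3 (2.01% of all genes called either way), 4 without WT 2 h replicate 3 (2.78%) or WT 0 h replicate 2 (3.05%), 27 without KO 2 h replicate 2 (7.55%) and 30 without KO 2 h replicate 1 (9.88%). With KO 2 h and WT 2 h replicate 1 both left out it was 28, of which 19 mitotic, where 1874 of 12474 genes were called. The share over all genes moved with the number of members called. DESeq2 called 29, where it called 9.49% of all genes either way. Cdk1 lost its call without KO 2 h replicate 3 (adjusted p = 0.0518), and Top2a and Kif11 lost theirs without that library, WT 2 h replicate 3 or WT 0 h replicate 2 (adjusted p up to 0.0644 and 0.123). Birc5 was called under 17 of 21 alternatives, Bub1, Ube2c and Tyms under 15, and Bub1b and Ccnb1 under 9, the losses coming mostly from left-out libraries. Mki67, Cenpf and Tpx2 were called under all 21 alternatives, with adjusted p of at most 0.0383.

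**Figure D3:**
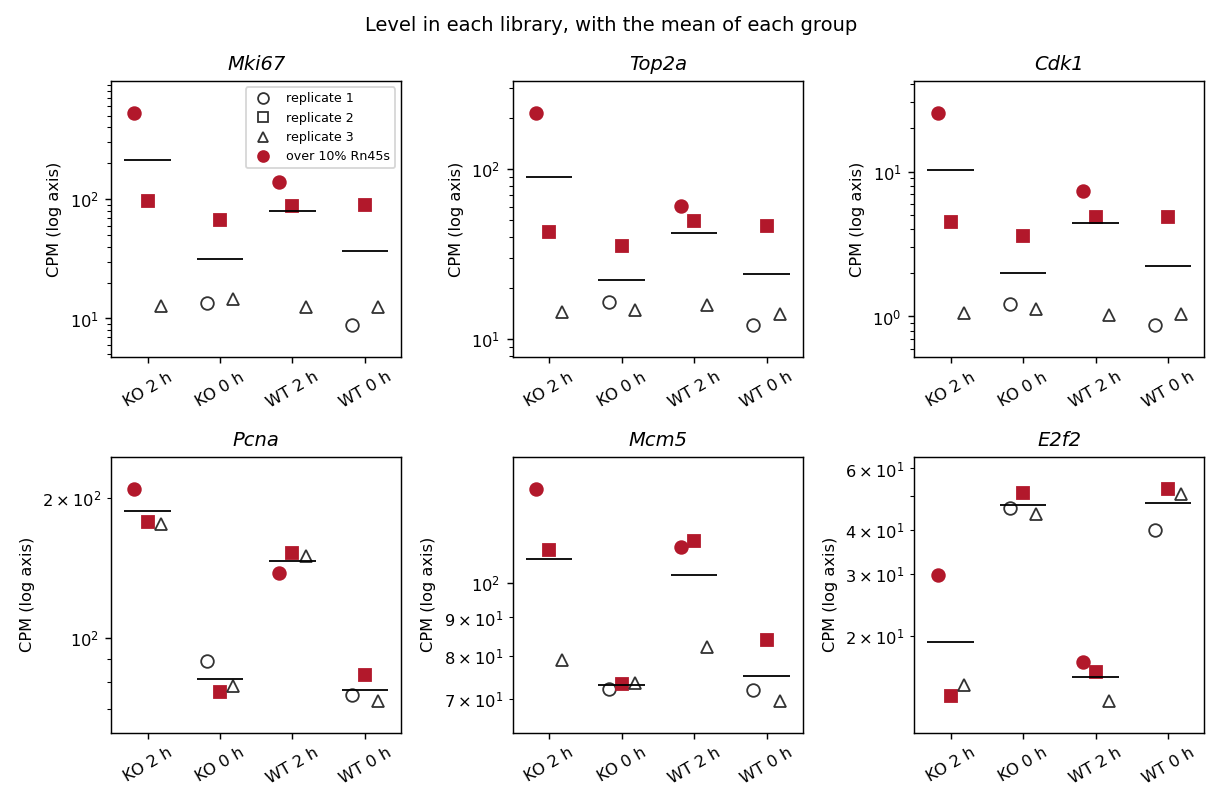
CPM (log axis) of 6 genes in each library by group, with red symbols for libraries over 10% Rn45s, shapes for replicates and lines for the mean of 3 libraries. Mki67, Top2a and Cdk1 separate by colour, Pcna and E2f2 by time, and Mcm5 is highest in the red 2 h libraries.

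The size of the excess in each library was set beside that of Rn45s. For each gene, the mean of the low-Rn45s libraries of the same time was subtracted, and the remainder was given as a percent of that in KO 2 h replicate 1. The mitotic genes had a median of 13.8% in KO 2 h replicate 2, 10.6% in KO 0 h replicate 2, 24.6% in WT 2 h replicate 1, 14.7% in WT 2 h replicate 2 and 16.8% in WT 0 h replicate 2. Rn45s itself stood at 16.4%, 12.3%, 27.9%, 15.4% and 12% in the same libraries, and the summed replication-dependent histone genes, whose mRNAs lack a poly(A) tail, at 15.9%, 11.6%, 26%, 14.3% and 11.9%. WT 2 h replicate 1 was the highest of the 5 in all 3 measures. KO 0 h replicate 2 was the lowest for the mitotic genes and the histones, with WT 0 h replicate 2 the lowest for Rn45s. The medians of the replication genes, 16.9%, 9.45%, 21.2%, 18% and 16.7%, hide a wider spread, with up to 78.3% for Mcm2 in single libraries. Cdt1 was lower in KO 2 h replicate 1 than in the low-Rn45s libraries of that time, so its percent has no meaning as a share.

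**Figure D4:**
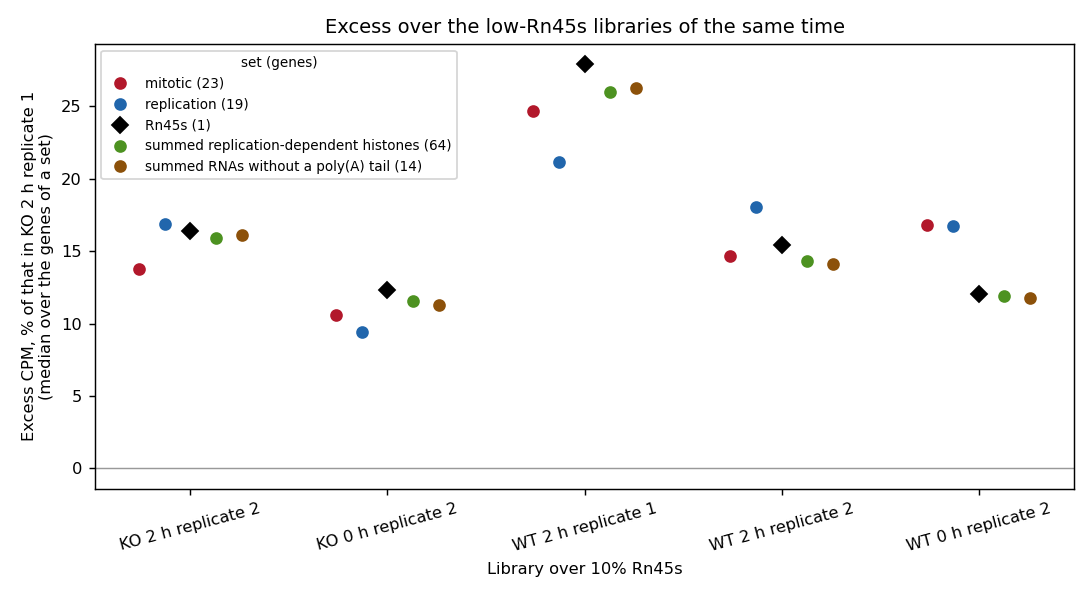
Excess CPM over the low-Rn45s libraries of the same time, as a percent of the excess in KO 2 h replicate 1 (y axis), in the 5 other libraries over 10% Rn45s (x axis). Points are medians over 23 mitotic and 19 replication genes, the single Rn45s value, and summed histone genes and summed RNAs without a poly(A) tail. In WT 2 h replicate 1 the points lie between 21.2% and 27.9%, above those of the other 4 libraries.

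Genes outside the 42 moved with the same libraries. Over all genes tested, 4.46% were called higher and 0.743% lower in this comparison. Of other mitosis genes, 23 of 81 were called higher and 0 lower in the libraries over 10% Rn45s (median log2 difference 0.89), led by the kinesins Kif14 (3.42 ± 0.50) and Kif2c (2.99 ± 0.52). Of other replication genes, 8 of 55 were called higher and 1 lower (median 0.23), and Clspn, the checkpoint adaptor claspin, differed by 3.21 ± 0.55. Among E2F, retinoblastoma and DREAM regulators 3 of 22 were called higher: the repressors E2f7 and E2f8, themselves E2F targets, and Mybl2. Replication-dependent histones were called higher in 48 of 53 (median 5.38), with summed levels of 488 to 3636 CPM in the high-Rn45s libraries and 36.3 to 88.1 CPM in the others. Other RNAs without a poly(A) tail were called higher in 7 of 9, with sums of 636 to 5423 CPM against 15.9 to 42.3 CPM.

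Markers of other cell types were also present in these libraries. The counts called below stand beside the same share of all genes called higher, 4.46%. Summed myeloid markers had 722 CPM in KO 2 h replicate 1 and 211 CPM in WT 2 h replicate 1, and over the sets 116 to 722 CPM against 43.6 to 112 CPM. Mpo, the myeloperoxidase of granulocyte precursors, had 444 CPM in KO 2 h replicate 1 and a median of 66.3 CPM over the high-Rn45s libraries, against 1.34 CPM in the others, whereas C1qb and C1qc of macrophages were at 0 in KO 2 h replicate 1. Erythroid markers summed to 41.2 to 131 CPM against 19.2 to 44.0 CPM (9 of 12 called higher), megakaryocyte and platelet markers to 17.0 to 105 CPM against 5.82 to 9.39 CPM (3 of 4), and germinal centre markers to 120 to 277 CPM against 102 to 129 CPM (4 of 10). Of 16 myeloid markers, 3 were called: Mpo, Prtn3 and Elane. T and NK cell markers (1 of 16 called, Nkg7), early B cell precursor markers (1 of 8, Erg), plasma cell markers (0 of 10), marginal zone markers (0 of 9) and follicular B cell markers (0 of 14) did not follow the sets as lists in this fit. With the batch as a block, 4 of the 8 precursor markers tested, of 13 listed, were called higher, where 8.07% of all genes were. In that fit 1 marginal zone marker was called higher and 1 lower, and 1 follicular marker lower. Whether these cells contributed to the levels of the 42 genes was not tested, and in bulk libraries fewer cells of a type and less RNA per cell cannot be told apart.

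After 2 h of anti-IgM, a few replication and G1/S genes were called in both genotypes while most mitotic genes did not pass the test. In KO cells 6 of the 42 genes were called, Pcna, Foxm1, Mcm5 and Fen1 higher and E2f2 and Ccne1 lower at 2 h; 14.1% of all genes were called higher and 13% lower. In WT cells 3 were called, Pcna higher and E2f2 and Ccne1 lower, where 10.7% of all genes were higher and 9.06% lower. These counts, 6 and 3 of 42, are below the share of all genes called either way, 27.1% in KO and 19.8% in WT.

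Pcna had 210, 178 and 176 CPM in KO 2 h, 89.1, 76.2 and 78.6 CPM in KO 0 h, 138, 152 and 150 CPM in WT 2 h and 75.2, 82.9 and 73.0 CPM in WT 0 h. Within each genotype every 2 h library lay above every 0 h library, as for 17.9% of all genes in KO and 21.3% in WT. For Pcna this held at high and at low Rn45s alike. The log2 change was 1.21 ± 0.11 in KO (2.31-fold, adjusted p = 6.78e-05) and 0.93 ± 0.11 in WT (1.90-fold, adjusted p = 0.000348), and within the animals it lay between 1.16 and 1.24 in KO and between 0.87 and 1.03 in WT. E2f2, an activator E2F expressed in resting lymphocytes, moved the other way. It had 29.8, 13.5 and 14.5 CPM in KO 2 h, 46.2, 51.0 and 44.6 CPM in KO 0 h, 16.9, 15.8 and 13.1 CPM in WT 2 h and 40.1, 52.6 and 50.7 CPM in WT 0 h. The log2 change was -1.36 ± 0.25 in KO (adjusted p = 0.00244) and -1.65 ± 0.25 in WT (adjusted p = 0.00113), with 2 h libraries below 0 h libraries throughout, as for 19.6% of all genes in KO and 22.7% in WT. Pcna and E2f2 were called under all 19 alternatives in both genotypes.

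Of the E-type cyclins of S phase entry, Ccne1 was called lower at 2 h and Ccne2 was not called. Ccne1 had 6.43, 2.66 and 2.85 CPM in KO 2 h, 9.08, 7.24 and 9.4 CPM in KO 0 h, 4.66, 2.43 and 2.51 CPM in WT 2 h and 5.16, 7.47 and 10.4 CPM in WT 0 h. It fell by 1.18 ± 0.41 on the log2 scale in KO (adjusted p = 0.0499) and by 1.27 ± 0.40 in WT (adjusted p = 0.0451). In both genotypes the 2 h libraries lay below the 0 h libraries without overlap, as for 19.6% of all genes in KO and 22.7% in WT. The smallest falls were in batch 1, where the 2 h libraries were rich in Rn45s (-0.49 in KO and -0.14 in WT), against -1.38 to -1.98 in the other 4 animals. Over the alternatives its adjusted p ranged from 0.000184 to 0.146 in KO, where the call was lost without any of KO 0 h replicates 1, 2 and 3 or KO 2 h replicates 2 and 3. The KO call was also lost with RLE size factors and with only the groups compared. It was lost as well without a filter on low counts and with a filter of 1 CPM in 6 libraries. With the animal as a block, which pairs the times, Ccne1 was called in neither genotype (adjusted p = 0.0668 in KO and 0.0785 in WT). In WT its adjusted p ranged from 0.000332 to 0.182 over the alternatives. The WT call was lost without WT 0 h replicate 2 or 3 or WT 2 h replicate 2 or 3, and without a filter on low counts. Ccne2 had 20.6, 10.4 and 11.8 CPM in KO 2 h, 11.1, 9.16 and 8.80 CPM in KO 0 h, 12.5, 10.0 and 9.34 CPM in WT 2 h and 9.60, 8.20 and 8.66 CPM in WT 0 h. Its log2 change was 0.53 ± 0.25 in KO (adjusted p = 0.137) and 0.27 ± 0.25 in WT (adjusted p = 0.533).

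Among the helicase genes, Mcm5 had 134, 111 and 78.9 CPM in KO 2 h, 72.1, 73.4 and 73.5 CPM in KO 0 h, 112, 114 and 82.1 CPM in WT 2 h and 72.0, 83.9 and 69.6 CPM in WT 0 h. It rose by 0.56 ± 0.18 on the log2 scale in KO (adjusted p = 0.0423), and its change in WT was 0.45 ± 0.18 (adjusted p = 0.111). The KO call was lost without any single one of KO 2 h replicates 1 and 2 and KO 0 h replicates 1, 2 and 3, and with KO 2 h and WT 2 h replicate 1 both left out, where the change was 0.34. It was also lost with RLE size factors, without a filter on low counts and with only the groups compared. Mcm2 had 128, 110 and 83.4 CPM in KO 2 h, 63.9, 91.3 and 64.0 CPM in KO 0 h, 95.5, 121 and 103 CPM in WT 2 h and 69.2, 86.8 and 68.6 CPM in WT 0 h. Its log2 change was 0.55 ± 0.19 in KO (adjusted p = 0.0525) and 0.51 ± 0.19 in WT (adjusted p = 0.0824), and with the batch as a block it was called in both (adjusted p = 0.0183 and 0.0297), where 32% of all genes were called in KO and 24.9% in WT. Changes of the 6 Mcm genes ranged from -0.15 to 0.63 in KO and from -0.11 to 0.51 in WT, Mcm4 being the lowest in both. Mcm6 had 165, 111 and 86.9 CPM in KO 2 h, 94.8, 99.4 and 71.6 CPM in KO 0 h, 119, 110 and 96.2 CPM in WT 2 h and 91.9, 122 and 73.2 CPM in WT 0 h. Mcm7 had 126, 78.1 and 70.2 CPM in KO 2 h, 69.0, 76.5 and 65.8 CPM in KO 0 h, 80.2, 79.4 and 69.7 CPM in WT 2 h and 75.8, 76.5 and 66.5 CPM in WT 0 h. The times overlapped for both in KO and in WT.

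Fen1, the flap endonuclease of lagging strand synthesis, had 114, 59.2 and 51.3 CPM in KO 2 h, 43.4, 47.7 and 39.2 CPM in KO 0 h, 63.7, 66.6 and 52.9 CPM in WT 2 h and 44.4, 51.6 and 36.6 CPM in WT 0 h. It rose by 0.76 ± 0.26 on the log2 scale in KO (adjusted p = 0.0462), and its change in WT was 0.47 ± 0.25 (adjusted p = 0.236). The KO call was lost without KO 2 h replicate 1 or any KO 0 h library. It was also lost with RLE size factors, with only the groups compared, and with KO 2 h and WT 2 h replicate 1 both left out. With a term for libraries over 10% Rn45s it was lost too, where the change was 0.60. The 2 h libraries lay above the 0 h libraries without overlap in both genotypes, as for 17.9% of all genes in KO and 21.3% in WT. E2f1, the activator E2F of S phase entry, had 20, 9.18 and 4.89 CPM in KO 2 h, 5.83, 6.33 and 3.93 CPM in KO 0 h, 10.2, 9.38 and 5.57 CPM in WT 2 h and 5.32, 4.82 and 4.70 CPM in WT 0 h. The log2 change was 1.04 ± 0.44 in KO (adjusted p = 0.102) and 0.76 ± 0.43 in WT (adjusted p = 0.266). Rrm1, the large subunit of ribonucleotide reductase, had 110, 63.1 and 57.2 CPM in KO 2 h, 54.3, 56.0 and 46.8 CPM in KO 0 h, 62.9, 57.1 and 47.4 CPM in WT 2 h and 49.1, 60.2 and 52.1 CPM in WT 0 h. It was not called in either genotype, nor were Cdt1, Gins2, Chek1, Cdc6, Rrm2 or Tyms.

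Over all 12 libraries the mitotic genes had larger median changes than the replication genes, with the largest changes in batch 1. In every animal of batches 2 and 3 the order was reversed, as given below. In the comparison of 2 h with 0 h the median log2 change was 1.41 for mitotic and 0.55 for replication genes in KO, and 0.52 and 0.42 in WT, against 0.04 and 0.01 for all genes. Foxm1, the transcription factor of G2 genes, was the mitotic gene called. It had 45.7, 24.7 and 16.7 CPM in KO 2 h, 11, 14.4 and 12.2 CPM in KO 0 h, 21.0, 22.6 and 17.1 CPM in WT 2 h and 11.3, 18.1 and 12.2 CPM in WT 0 h. Its change was 1.18 ± 0.32 in KO (adjusted p = 0.0176) and 0.55 ± 0.31 in WT (adjusted p = 0.262). The KO call was lost without KO 0 h replicate 1 or 3 and with only the groups compared. It was also lost with KO 2 h and WT 2 h replicate 1 both left out, where the change was 0.68. Ccna2 had 57.5, 13.4 and 13.7 CPM in KO 2 h, 10.2, 11.8 and 12.9 CPM in KO 0 h, 20.4, 21.5 and 13.8 CPM in WT 2 h and 10.7, 17.2 and 9.76 CPM in WT 0 h, and was not called. For Mki67 the change was 2.74 ± 1.32 in KO (adjusted p = 0.145) and 1.14 ± 1.26 in WT (adjusted p = 0.602), with replicates far apart in both. The number of the 42 genes called in KO was 23, of which 13 mitotic, without KO 2 h replicate 3 (29.9% of all genes called). It was 4 without KO 2 h replicate 1 (30.8%), and 2 without KO 0 h replicate 1 (18.2%) or 3 (19.4%).

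Animal by animal, the mitotic genes were higher at 2 h in batch 1, where Rn45s was also higher at 2 h. In the KO animal of batch 1 the 2 h library was above the 0 h library for 23 of 23 mitotic genes, with a median log2 change of 2.71, and in the WT animal of batch 1 likewise for 23 of 23, with a median of 1.38. In batch 2, where both libraries of each animal were rich in Rn45s, the median was 0.07 in KO (13 of 23 higher at 2 h) and -0.27 in WT (6 of 23). In batch 3, where both were poor in it, the median was -0.04 in KO (9 of 23) and 0.00 in WT (12 of 23). The replication genes had medians of 1.01 in KO and 0.46 in WT in batch 1, 0.23 and 0.03 in batch 2, and 0.09 and 0.11 in batch 3. These lay below the mitotic medians of the same animals in batch 1 and above them in batches 2 and 3. In all 6 animals 8 of 19 replication genes were higher at 2 h (42.1%, against 18.7% of all genes) and 3 lower (15.8%, against 22.9%). Of the mitotic genes 2 of 23 were higher in all 6 animals, Ccna2 and Foxm1, and 0 lower.

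**Figure D5:**
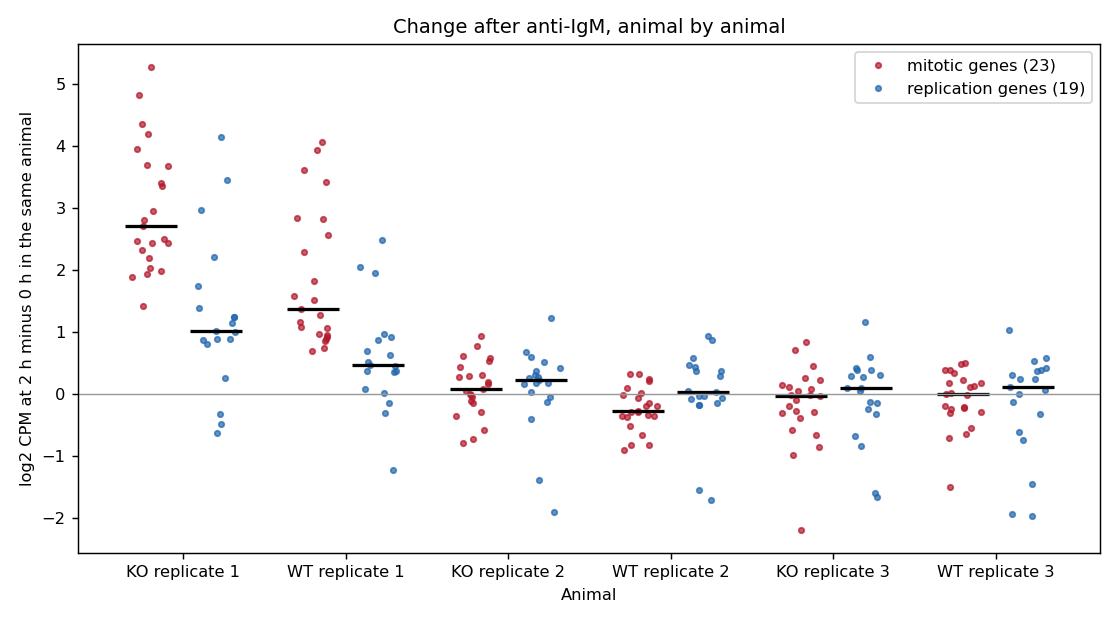
Change in log2 CPM at 2 h minus 0 h (y axis) in each of the 6 animals (x axis), with 1 point per gene and the median as a line. In the batch 1 animals the mitotic medians are 2.71 (KO) and 1.38 (WT), and in the other 4 animals they lie between -0.27 and 0.07.

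A further setting, chosen after the data were seen, used the batch as a block and left out KO 2 h and WT 2 h replicate 1. In it edgeR called 11 genes in KO and 12 in WT, where 44.2% and 41.7% of all genes were called. Of the 23 mitotic genes 3 were then called lower at 2 h in each genotype, and 1, Foxm1, was called higher. Cenpe, the kinesin that carries chromosomes to the metaphase plate, had 69.0, 15.8 and 8.41 CPM in KO 2 h, 17.9, 26.4 and 16.9 CPM in KO 0 h, 23.7, 14.7 and 9.57 CPM in WT 2 h and 14.5, 27.7 and 15.9 CPM in WT 0 h. In batches 2 and 3 its 2 h level was below the 0 h level in all 4 animals. The same held for 21.7% of the mitotic genes and 31.9% of all genes. The log2 change of Cenpe in that setting was -0.96 in KO (adjusted p = 0.000133) and -0.81 in WT (adjusted p = 0.000635). Kif23 (-0.75) and Bub1 (-1.68) were lower in KO, and Aurkb (-1.13) and Aurka (-0.63) in WT. On all 12 libraries the same genes had changes of 0.53 for Cenpe, 0.78 for Kif23 and 1.41 for Bub1 in KO, and of -0.19 for Aurkb and 0.01 for Aurka in WT, none of them called. Mcm4 was lower in both genotypes in that setting (-0.39 in KO and -0.24 in WT), and Mcm2, Mcm5, Fen1, Pcna and Foxm1 were higher in both.

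Between the genotypes none of the 42 genes was called. The counts over all genes in this paragraph are of the fits without a block. At 2 h edgeR called 0 of 12242 genes; 640 had an unadjusted p under 0.05 (5.23%), 1 of the 42 genes among them, and DESeq2 called 2 genes (0.0163%), none of the 42. At 0 h edgeR called 0 genes, with 91 at an unadjusted p under 0.05 (0.743%), none of the 42, and DESeq2 called 1 (0.00817%), none of the 42. For the difference between the KO and WT responses edgeR called 0 and DESeq2 0, with 39 genes at an unadjusted p under 0.05 (0.319%), none of the 42. Jmjd1c was itself not called, with a log2 difference of -0.52 ± 0.13 at 2 h (adjusted p = 0.887) and -0.56 ± 0.13 at 0 h (adjusted p = 1.0).

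Pcna was the gene with the unadjusted call at 2 h: its 3 KO libraries at 2 h lay above its 3 WT libraries, as for 4.62% of all genes. The log2 difference was 0.36 ± 0.11, with an adjusted p = 0.887 in edgeR's quasi-likelihood test. The median log2 difference at 2 h was 0.89 over mitotic genes and 0.27 over replication genes, against 0.01 over all genes, and for Mki67 it rested on 529 CPM in KO replicate 1 against 138 CPM in WT replicate 1. Aurkb, the kinase of the chromosomal passenger complex, had 40.9, 7.12 and 2.78 CPM in KO 2 h against 8.92, 5.82 and 1.73 CPM in WT 2 h, and 3.71, 6.90 and 5.20 CPM in KO 0 h against 4.13, 9.28 and 5.24 CPM in WT 0 h. Its difference at 2 h was 1.58 ± 0.85 (adjusted p = 0.887). Rrm1 differed by 0.44 ± 0.22, Ccnb2 by 1.02 ± 0.66, Foxm1 by 0.49 ± 0.32 and Ccne2 by 0.40 ± 0.25, each overlapping between genotypes.

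Within batches, Pcna was higher in KO at 2 h in all 3, by 0.61, 0.23 and 0.24 on the log2 scale in batches 1, 2 and 3. So were Rrm1 (0.80, 0.15 and 0.27) and Aurkb (2.18, 0.28 and 0.64). Mki67, Ccnb1, Ccnb2, Kif20a, Tpx2, Cenpf, Ube2c, Chek1, Ccne1 and Ccne2 were also higher in KO in all 3 batches. Several of these differences were very small. In batch 2 Ccnb2 and Chek1 each differed by 0.0058. In batch 3 Ccnb1 differed by 0.0097, Cenpf by 0.018, Tpx2 by 0.023 and Mki67 by 0.033. None of these genes was called between the genotypes. The remaining members were mixed in sign over the batches. The share of all genes with the same sign in all 3 was not counted, so the number of such members cannot be weighed. The class medians were largest in batch 1. The median KO minus WT log2 difference over mitotic genes was 1.54 in batch 1, with 23 of 23 genes higher in KO, where Rn45s took 52.3% of the KO library and 24.8% of the WT library. It was 0.09 in batch 2 (14 of 23), where the shares were 15.5% and 15%, and 0.01 in batch 3 (12 of 23), where they were 0.464% and 0.418%. The replication genes had medians of 0.71, -0.03 and 0.01 in batches 1, 2 and 3. At 0 h the mitotic medians were 0.28, -0.30 and 0.08 in the same batches. Kif11 had 50.7, 12.9 and 4.08 CPM in KO 2 h, 4.77, 6.67 and 3.93 CPM in KO 0 h, 17.7, 12.6 and 5.02 CPM in WT 2 h and 2.30, 15.6 and 4.27 CPM in WT 0 h, and Bub1 had 17.9, 2.41 and 0.247 CPM in KO 2 h, 1.21, 4.30 and 1.8 CPM in KO 0 h, 5.19, 4.04 and 0.863 CPM in WT 2 h and 0.317, 3.38 and 0.854 CPM in WT 0 h. With Ccnb1 these were the mitotic genes with the smallest p at 0 h, and their differences of -0.51 ± 0.86, 0.72 ± 1.22 and -0.51 ± 0.80 had an adjusted p of 1.0. For the replication genes the smallest p at 0 h belonged to Pcna (0.08 ± 0.11), Ccne2 (0.13 ± 0.25) and Mcm6 (-0.11 ± 0.24).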

How the data were processed

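The submitters' processing notes name the aligner STAR and the build mm10, without further detail; the sources used here do not name a counting tool, strand setting or annotation. Overlapping and antisense genes thus cannot be told apart. The authors deposited unnormalized counts by symbol, 1 library a file. Genes were kept with filterByExpr, libraries scaled by TMM, and a quasi-likelihood model with 1 mean per group fitted to all 12 libraries in edgeR 4.0.16 (R 4.3.3), with Benjamini-Hochberg adjustment over all genes, two-sided tests and calls at an adjusted p under 0.05. The Rn45s comparison added a term for libraries over 10% Rn45s. Standard errors derive from the F statistic; changes within animals use log2 CPM with a prior count of 2. DESeq2 1.42.0 was an alternative.

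Batch numbers pair the libraries per the labels, and each animal gave both times; deviations from group means correlated between -0.40 and 0.86 over 18 pairs of the same batch and between -0.76 and 0.62 over 36 others. No libraries of a group agreed within sampling noise (chi-square per degree of freedom 13.9 to 871). The members and gene lists were chosen with earlier results of these data known. Full values are given for 12 preset members and the 3 of each class with the smallest p in a comparison, and up to 3 genes of each list are named.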

Additional observations from a re-analysis of the deposited data

How the results depend on the processing

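No member was called between KO and WT at 2 h or 0 h, or for the difference in response, under any alternative run. Percents in brackets below are the share of all genes called either way in the same fit. For 2 h against 0 h in KO 6 members were called (27.1%). The number was 3 with RLE size factors (27.8%), 10 with DESeq2 (32.9%) and 2 with only the groups compared (14.7%). It was 3 without KO 2 h and WT 2 h replicate 1 (31.3%) and 12 with DESeq2 and the batch block (36.5%). With the batch block and without those libraries it was 11 (44.2%). It ranged from 2 to 23 when single libraries were left out (18.2% to 30.8%). For WT (3 called, 19.8%) it was 6 with only the groups compared (28.6%) and 6 with the batch block and an Rn45s term (32.7%). It was 5 with DESeq2 and the batch block (28.7%) and 12 with the batch block and those same libraries left out (41.7%). When single libraries were left out it was from 2 to 3 (10.1% to 17.6%). For the Rn45s comparison (12 called, 5.2%) it was 27 without a filter on low counts (8.08%), 29 with DESeq2 (9.49%) and 27 with the replicate block (13.2%). It was 32 with log2 Rn45s percent as the covariate (9.84%), 28 without those libraries (15%) and 31 with DESeq2 and the batch block (14.8%). When single libraries were left out it was from 3 to 30 (2.01% to 9.88%). For the comparisons of 2 h with 0 h the replicate block by batch changed the call of Mcm2 and no other (adjusted p = 0.0183 in KO and 0.0297 in WT), and the block by animal changed that of Mcm2 in KO (adjusted p = 0.0358) and ended that of Ccne1 (adjusted p = 0.0668 in KO and 0.0785 in WT). Of the members named, 4 log2 changes turned sign and passed the threshold, all with the batch block and those libraries left out: Bub1 (-1.68), Kif23 (-0.75) and Cenpe (-0.96) in KO and Aurka (-0.63) in WT. The cause was not tested. Depth limits Bub1, Ube2c, Tyms, Ccnb1, Cdk1 and Cdc6, which lay near 1 CPM in some libraries.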

Other observations

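Of the 22 E2F, retinoblastoma and DREAM regulators, 3 were called higher and 5 lower at 2 h in KO, and 2 higher and 4 lower in WT. Of 14 G1 cyclins, inhibitors and related genes, 3 were called higher and 4 lower in KO, and 2 higher and 4 lower in WT. Over all genes 27.1% were called in KO and 19.8% in WT, and most of the regulators were not called. The genes named next are among those with the smallest p of the lists. Rbl2, the retinoblastoma family protein p130 that is part of DREAM in quiescent cells, had 46.3, 46.0 and 54.4 CPM in KO 2 h (replicates 1, 2 and 3), 123, 132 and 131 CPM in KO 0 h, 84.6, 65.0 and 72.5 CPM in WT 2 h and 137, 129 and 143 CPM in WT 0 h. Within each genotype every 2 h library lay below every 0 h library, as for 19.6% of all genes in KO and 22.7% in WT. Btg2, an antiproliferative gene, fell by 1.20 ± 0.16 on the log2 scale in KO and by 0.97 ± 0.15 in WT. Cdkn1b, the inhibitor p27 of cyclin-dependent kinases, fell by 1.36 ± 0.18 in KO and by 1.11 ± 0.18 in WT. Cdk4, the kinase of G1, rose by 1.36 ± 0.14 in KO and by 1.23 ± 0.14 in WT, and Myc rose by 3.07 ± 0.35 in KO and by 3.23 ± 0.35 in WT. All of these were called by edgeR's quasi-likelihood test.

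Among the 22 E2F, retinoblastoma and DREAM regulators, Rbl2 was also called between genotypes, by DESeq2 alone in the fits without a block. At 2 h every KO library lay below every WT library, as for 3.59% of all genes. The log2 difference was -0.58 ± 0.13 in DESeq2 (adjusted p = 0.0299) and -0.59 ± 0.12 in edgeR's quasi-likelihood test (adjusted p = 0.887). In these fits it was 1 of 2 genes that DESeq2 called at 2 h over the whole table, and edgeR called none. With the batch as a block DESeq2 called 19 genes at 2 h and 4 at 0 h. With that block and without KO 2 h and WT 2 h replicate 1, edgeR called 2 genes at 2 h and 5 at 0 h. Whether Rbl2 was among these is not given here.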
